A study of Mus musculus with 3 samples.

Results

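Hippocampal expression of genes from the families that make up, dock and fuse synaptic vesicles was compared among 3 RNA pools. These genes were taken by family name, as all genes of the array annotation named as synaptotagmins, syntaxins, syntaxin binding proteins, VAMPs, synapsins, SV2 proteins, Rab3 GTPases, RIMs, complexins, UNC13 proteins, Snap25, Syp, Bsn or Pclo. This gave 69 of the 19504 genes with a symbol, each measured by 1 probe set. All mice were 11-week-old male C57BL/6J. The RE pool held hippocampi of 4 mice given 3 weeks of restraint and then 20 μg of extracellular vesicles (EVs) from the serum of mice that ran on a wheel, injected into the left cerebral ventricle. The RS pool held hippocampi of 4 mice given the same restraint and the same amount of EVs from sedentary mice. The NV pool held hippocampi of 3 mice that were not restrained and received vehicle (PBS) by the same route, although its sample title speaks of vesicles. A restrained group injected with vehicle was not analysed here, so restraint and EV injection cannot be told apart in either comparison with NV. The labels give the tissue as hippocampus in one field and as ventral hippocampus in another. RNA of each pool went onto a single Affymetrix array that covers whole transcripts. There were no replicate arrays, no difference below has a replicate check or a p-value, and the number of arrays limits the precision.

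Neurotransmitter is stored in synaptic vesicles, which are tethered at the active zone by large scaffold proteins such as bassoon and piccolo. UNC13 and syntaxin binding proteins prepare, or prime, the vesicle. Fusion follows when a vesicle SNARE protein (a VAMP) zips together with the plasma membrane SNAREs syntaxin and SNAP-25, and a synaptotagmin senses the calcium that triggers it. Most of these proteins belong to families whose members are used by different neurons, so that the choice of paralog is a known mark of brain region and cell type.

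The values are log2 signals, and a difference of 1 is a 2-fold difference. A level is compared only within a gene, since probe sets differ in how strongly they bind. Signal without clear expression was judged from 1450 chemosensory receptor genes (smell, pheromone and taste), whose 95th percentile, 6.01, served as the background level. Of the 69 genes, 59 were above it in all 3 pools and 9 in none. Those in none were Syt8, Stx11, Stx19, Vamp5, Vamp8, Cplx3, Cplx4, Rab3d and Unc13d, and Syt6 was above it in NV alone. Array medians were 6.55 in RE, 6.62 in RS and 6.64 in NV. Among markers of the labelled tissue, Prox1, a transcription factor of dentate granule cells, was at 12.19 in RE, 12.52 in RS and 9.82 in NV. Neurod6, known from pyramidal cells, had 15.28, 15.61 and 13.16 in the same order of pools. Not all such markers were above the background level in NV. The granule cell genes Dsp (4.85), Tdo2 (4.42) and Lct (5.25) and the pyramidal cell gene Pou3f1 (5.60) were below it there, and above it in RE and RS. The other granule and pyramidal cell genes listed below were above it in all pools.

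Between RS and NV, 6 of the 69 genes differed by 2-fold or more, 8.70% against 7.80% of all genes. Higher in RS were Syt14 and Stxbp6 (2.90% of the genes described here, against 3.52% of all genes). Lower were Unc13c, Syt9, Vamp1 and Syt2 (5.80%, against 4.29%). Between RE and NV there were again 6 (8.70%, against 7.98% of all genes). Syt14 and Stxbp6 were higher (2.90%, against 2.87%) and Unc13c, Syt9, Vamp1 and Syt10 were lower (5.80%, against 5.12%). Between RE and RS, 0 of the 69 passed 2-fold, with 1.16% of all genes passing. These shares were near those of all genes in each comparison, and both comparisons with NV use the same NV array. In bulk RNA, fewer cells of a type and less RNA per cell cannot be told apart. The 5 genes past 2-fold in both RS and RE against NV were Unc13c, Syt9, Vamp1, Syt14 and Stxbp6. The median difference of the 69 genes was 0.08 between RS and NV (-0.01 over all genes, and -0.02 for the 69 after quantile normalization), 0.00 between RE and NV (-0.06 over all genes) and -0.07 between RE and RS (-0.07 over all genes). Of the 69, 71.0% differed by less than 0.5 between RS and NV, with 68.5% of all genes doing so, and 89.9% between RE and RS, with 85.6% of all genes.

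**Figure D1:**
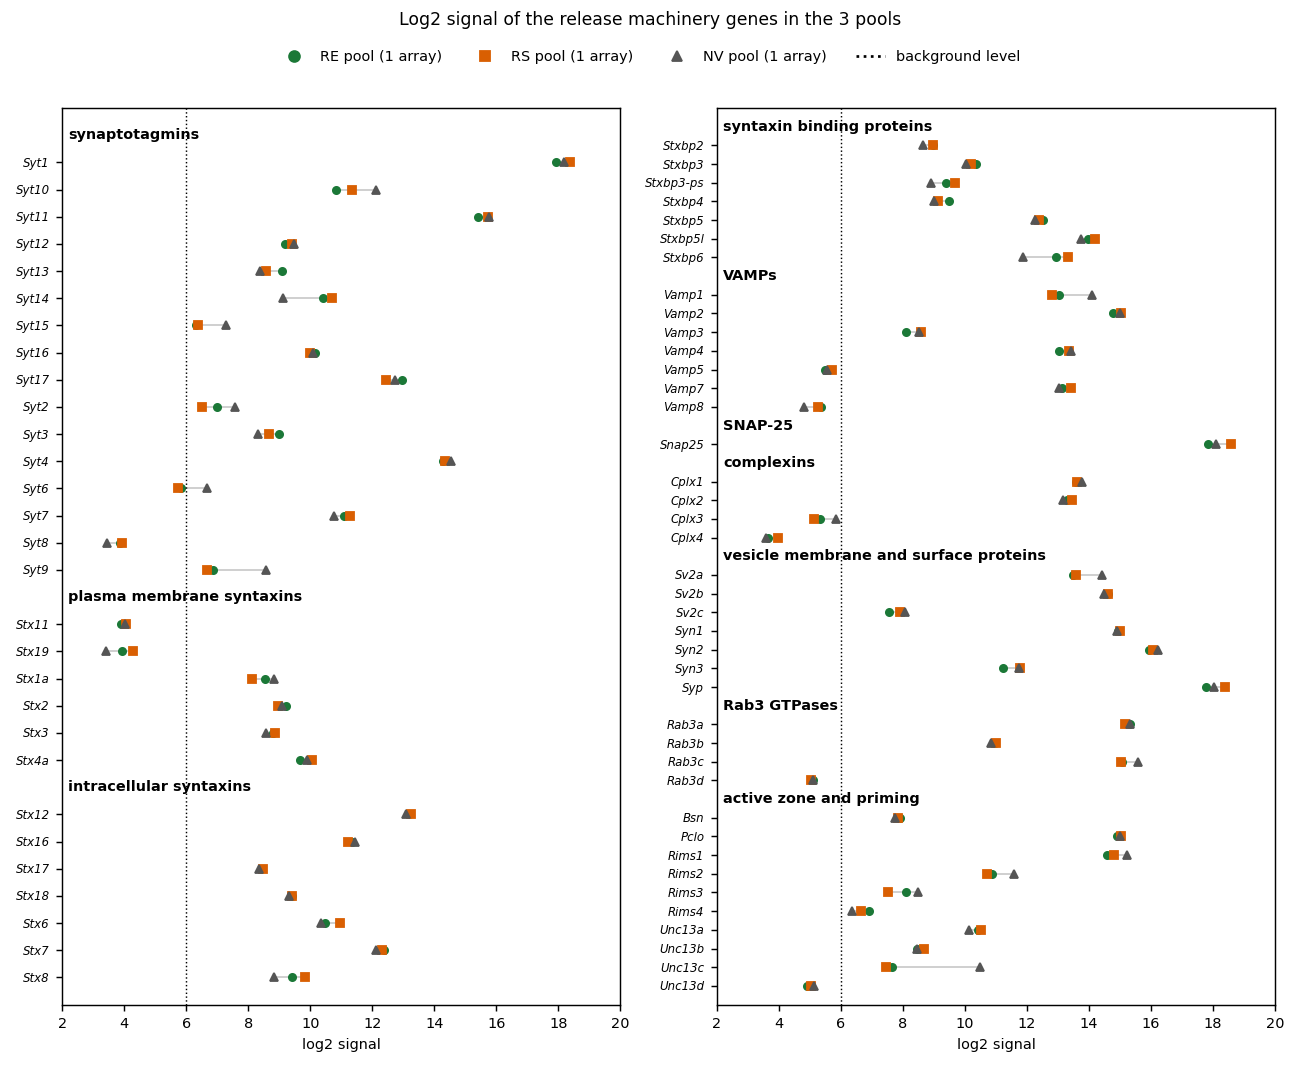
Log2 signal (x axis) of each of the 69 genes (rows, grouped by role) on the array of the RE pool (circles), the RS pool (squares) and the NV pool (triangles), with a dotted line at the background level of 6.01. Most rows have the 3 symbols close together, and the Unc13c row has the widest gap, with 7.63 in RE and 7.44 in RS against 10.48 in NV.

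The stretches before the transcription start sites of the 5 genes that stood apart from NV in both restrained pools are shown because these genes differed together and their proximal promoters can be set side by side. Each is the 250 bases upstream of the start, read 5′ to 3′ on the gene's strand, from RefSeq (GRCm38.p6), which listed 1 start for each of them. Capitals mark matches, on either strand, to any of 5 motifs. The GC box searched was GGGCGG, which reads CCGCCC on the other strand. The CCAAT box was its own 5 letters, which read ATTGG on the other strand. The core of the CRE was TGACG. The E-box was the palindrome CACGTG. The TATA box was TATAAA.
Unc13c, chr9:73969038-73969287, minus strand: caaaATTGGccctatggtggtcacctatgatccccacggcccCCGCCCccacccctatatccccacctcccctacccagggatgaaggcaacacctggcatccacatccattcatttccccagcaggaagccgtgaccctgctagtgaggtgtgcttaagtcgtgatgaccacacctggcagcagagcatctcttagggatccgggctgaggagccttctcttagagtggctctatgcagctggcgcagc
Syt9, chr7:107370540-107370789, plus strand: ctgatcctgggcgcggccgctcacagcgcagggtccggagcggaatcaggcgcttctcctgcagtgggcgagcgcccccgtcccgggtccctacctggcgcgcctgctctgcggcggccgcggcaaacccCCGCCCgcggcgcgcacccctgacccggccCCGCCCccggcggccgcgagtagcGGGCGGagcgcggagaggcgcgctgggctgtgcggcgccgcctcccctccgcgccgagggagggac
Vamp1, chr6:125215331-125215580, plus strand: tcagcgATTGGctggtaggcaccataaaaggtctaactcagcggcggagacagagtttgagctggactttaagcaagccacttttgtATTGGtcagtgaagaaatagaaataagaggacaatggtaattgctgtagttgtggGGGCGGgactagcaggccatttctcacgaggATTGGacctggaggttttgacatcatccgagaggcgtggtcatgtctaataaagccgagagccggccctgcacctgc
Syt14, chr1:193035776-193036025, minus strand: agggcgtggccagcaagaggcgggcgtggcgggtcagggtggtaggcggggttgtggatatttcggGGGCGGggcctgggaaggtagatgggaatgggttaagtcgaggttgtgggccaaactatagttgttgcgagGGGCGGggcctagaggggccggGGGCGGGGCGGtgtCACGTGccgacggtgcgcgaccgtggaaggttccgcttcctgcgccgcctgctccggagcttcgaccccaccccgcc
Stxbp6, chr12:45074484-45074733, minus strand: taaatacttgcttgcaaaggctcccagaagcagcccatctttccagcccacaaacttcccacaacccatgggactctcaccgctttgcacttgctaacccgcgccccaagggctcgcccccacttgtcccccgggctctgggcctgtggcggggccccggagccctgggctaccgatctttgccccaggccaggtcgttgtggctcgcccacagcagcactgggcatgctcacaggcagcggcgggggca

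The 3 lower genes and the 2 higher ones did not share one promoter type in these letters. Syt9 held 3 GC boxes in a window of 80.4% G and C with 40 CpG dinucleotides. Vamp1 held 3 CCAAT boxes and 1 GC box at 50.4% G and C with 9 CpG, and Unc13c held 1 of each at 58.8% with 6 CpG. Syt14 held 4 GC boxes, the nearest pair overlapping by 1 base, and 1 E-box, at 69.2% with 25 CpG. Stxbp6 held no match to the 5 motifs at 65.2% with 12 CpG. A GC box was found in 32.7% of all 32851 promoter windows of this length, a CCAAT box in 33.8%, a CRE core in 17.8%, a TATA box in 12.4% and an E-box in 6.02%. Of the 69 genes described here, 54 had at least 1 window in the table, and 40 of these had a GC box in at least 1 window. Counted by window, 62.3% held a GC box, at a median G and C content of 60.8% against 52.4% in all windows. A match is a description of letters only.

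The active zone and priming genes held the largest single difference among the 69. Unc13c encodes Munc13-3, the priming protein known from cerebellar granule cells. Its log2 signal was 7.63 in RE, 7.44 in RS and 10.48 in NV. Both restrained pools were thus far below NV, by -2.85 in RE (7.19-fold) and -3.04 in RS (8.23-fold), and lay within 0.19 of each other. The paralogs did not share this. Unc13a, which encodes Munc13-1, the main priming protein of forebrain glutamatergic synapses, had 10.42 in RE, 10.50 in RS and 10.12 in NV. Unc13b, which encodes Munc13-2, had 8.44 in RE, 8.66 in RS and 8.43 in NV. The differences of these 2 paralogs from NV were between 0.00 and 0.37. Unc13d, known from granule release in immune cells, was below the background level throughout.
The RIM scaffolds, which link vesicles, calcium channels and Munc13, were lower in RS than in NV for 3 of 4 genes, without passing 2-fold. Rims3, a short form that lacks the parts binding Rab3 and Munc13, had 8.09 in RE, 7.52 in RS and 8.47 in NV, a difference of -0.95 between RS and NV. It passed 2-fold after quantile normalization (-1.03) and after removal of the trend with signal (-1.02). Rims2 had 10.88 in RE, 10.71 in RS and 11.57 in NV, and Rims1 had 14.57, 14.80 and 15.21 in the same pools. Rims4 lay the other way, with 6.89 in RE, 6.65 in RS and 6.34 in NV. The giant scaffolds differed little. Pclo, which encodes piccolo, had 14.90 in RE, 15.04 in RS and 15.01 in NV, and Bsn, which encodes bassoon, had 7.91, 7.82 and 7.74.

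The synaptotagmins, of which 16 were measured, spread in both directions. In RS against NV 1 was higher at 2-fold and 2 lower (18.8%, against 7.80% of all genes), with a median of -0.10. Syt9, a fast calcium sensor known from striatal and limbic neurons, had a log2 signal of 6.88 in RE, 6.67 in RS and 8.57 in NV. It was lower than NV by 3.22-fold in RE and 3.72-fold in RS, and the values in both restrained pools were within 1 of the background level. Syt2, the fast sensor of hindbrain synapses and of some inhibitory neurons, had 7.00 in RE, 6.51 in RS and 7.57 in NV. It passed 2-fold in RS (-1.06) but not in RE (-0.57), and the RE value lay between those of the other pools. Both restrained values of Syt2 were also within 1 of the background level. Syt10, a sensor for the release of insulin-like growth factor in olfactory bulb neurons, had 10.83 in RE, 11.36 in RS and 12.11 in NV. It passed 2-fold in RE (-1.29, 2.44-fold) and not in RS (-0.76). Whether these 2 genes differed between RE and RS beyond array error was not tested, as their differences of 0.49 and -0.53 rest on 1 array per pool.
Syt14, one of the synaptotagmins that do not bind calcium, went the other way. Its signal was 10.41 in RE, 10.70 in RS and 9.13 in NV, so that RE was 2.43-fold and RS 2.97-fold above NV. Syt1, the fast calcium sensor of most forebrain synapses, had 17.94 in RE, 18.39 in RS and 18.18 in NV. Its difference between RS and NV, 0.21 as deposited, was 0.02 without the trend with signal and -0.26 after quantile normalization. Syt7, a slow sensor linked to asynchronous release, had 11.09 in RE, 11.27 in RS and 10.77 in NV. Syt11, which does not bind calcium and acts in membrane trafficking, had 15.41, 15.75 and 15.77. Just short of 2-fold was Syt15, with 6.30 in RE and 6.37 in RS, both near the background level, and 7.29 in NV. Syt6 had 5.82 in RE and 5.75 in RS, both below the background level, and 6.66 in NV. Syt13 and Syt3 were highest in RE, with 9.10 and 8.99 there, 8.57 and 8.66 in RS, and 8.37 and 8.30 in NV. Of the remaining 5, Syt4, Syt12, Syt16, Syt17 and Syt8 each differed from NV by 0.51 or less in both restrained pools.

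Among the SNARE proteins of the vesicle, the VAMPs, 1 of 7 genes passed 2-fold. Vamp1, which encodes synaptobrevin 1, the form that prevails in spinal cord and brainstem, had 13.04 in RE, 12.81 in RS and 14.10 in NV. It was lower by 2.08-fold in RE and 2.43-fold in RS. The RE difference of -1.06 became -0.995 when differences were centred on the median of all genes, just short of 2-fold. Vamp2, which encodes synaptobrevin 2, the main forebrain form, had 14.76 in RE, 15.03 in RS and 15.01 in NV. Against NV, the differences of Vamp2 were -0.25 in RE and 0.02 in RS. Vamp4 (13.03 in RE, 13.37 in RS, 13.42 in NV) and Vamp7 (13.14, 13.42, 13.04), which act in endosomal and slower release pathways, lay within 0.39 of NV, as Vamp3, a form found in most cells, did in RS but not in RE (8.10 in RE, 8.59 in RS, 8.52 in NV).
The target SNAREs did not pass 2-fold. Snap25 had 17.85 in RE, 18.57 in RS and 18.09 in NV. Its difference between RS and NV, 0.47 as deposited, was 0.28 without the trend with signal and 0.00 after quantile normalization. Stx1a, which encodes the neuronal plasma membrane syntaxin, had 8.55 in RE, 8.12 in RS and 8.83 in NV, a difference of -0.71 between RS and NV. Stx2, Stx3 and Stx4a, plasma membrane syntaxins of many cell types, were within 0.30 of NV in both restrained pools. Stx11 and Stx19 were below the background level.
Of the 7 intracellular syntaxins, 6 were above NV in RS, with a median of 0.14, and 5 of 7 after quantile normalization or removal of the trend with signal. Stx8, a SNARE of late endosomes, came closest to 2-fold, with 9.42 in RE, 9.82 in RS and 8.84 in NV (0.98 between RS and NV). Stx6, of the trans-Golgi network, had 10.48 in RE, 10.95 in RS and 10.34 in NV. Stx7, Stx12, Stx16, Stx17 and Stx18 were within 0.26 of NV in both restrained pools.

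**Figure D2:**
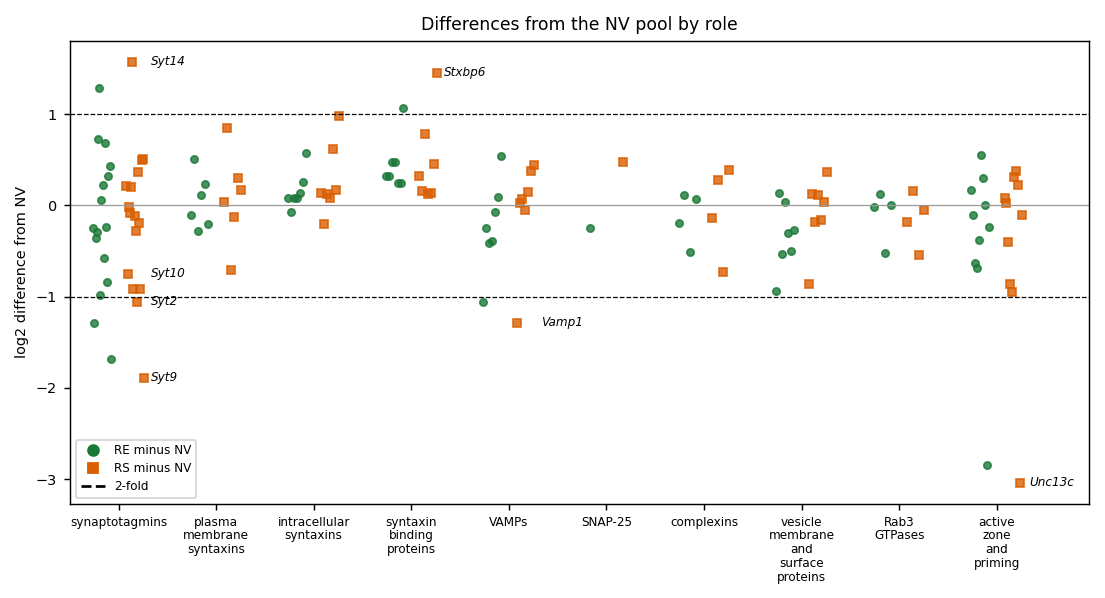
Log2 difference from the NV pool (y axis) for the RE pool (circles) and the RS pool (squares), 1 point per gene, grouped by role along the x axis, with dashed lines at 2-fold. Unc13c lies lowest at -2.85 in RE and -3.04 in RS, Syt14 and Stxbp6 lie above the upper line, and all 7 syntaxin binding proteins lie above 0.

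All 7 syntaxin binding proteins were above NV in RS, by 0.12 to 1.45 with a median of 0.33, and in RE, by 0.25 to 1.07 with a median of 0.32. All 7 stayed above 0 after centring, removal of the trend with signal and quantile normalization. Over all genes, 9661 of 19504 were above 0 between RS and NV and 8698 between RE and NV. Stxbp6 encodes amisyn, which has a VAMP-like SNARE motif and holds syntaxin back from fusion. Its signal was 12.93 in RE, 13.30 in RS and 11.86 in NV, 2.10-fold higher in RE and 2.73-fold higher in RS than in NV. The tomosyns, which also occupy syntaxin, had smaller differences. Stxbp5l had 13.97 in RE, 14.18 in RS and 13.72 in NV, and Stxbp5 had 12.50, 12.39 and 12.26. Stxbp3, a Munc18 form of many cell types, had 10.34 in RE, 10.18 in RS and 10.02 in NV. Its pseudogene Stxbp3-ps had 9.38 in RE, 9.69 in RS and 8.91 in NV, and how far its probe set also binds Stxbp3 RNA is not known. Stxbp2 and Stxbp4 were within 0.47 of NV in both restrained pools.

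The vesicle membrane and surface proteins held no gene past 2-fold against NV. Sv2a, a vesicle protein bound by the antiepileptic drug levetiracetam, came nearest, with 13.49 in RE, 13.56 in RS and 14.42 in NV. Both restrained pools were below NV, by -0.93 in RE and -0.86 in RS. Sv2b, the form abundant in excitatory forebrain neurons, had 14.61 in RE, 14.60 in RS and 14.47 in NV, and Sv2c, known from the basal ganglia, had 7.54, 7.89 and 8.07. Sv2b was thus above NV, and Sv2a and Sv2c below it, in both restrained pools as deposited, but the difference of Sv2b between RS and NV was -0.04 after quantile normalization. Among the synapsins, which tether vesicles in the reserve pool, Syn1 had 14.92 in RE, 15.01 in RS and 14.89 in NV. Syn2 had 15.93 in RE, 16.07 in RS and 16.23 in NV, and Syn3 had 11.23, 11.76 and 11.73. Syp, which encodes synaptophysin, a marker of synaptic vesicles, had 17.76 in RE, 18.39 in RS and 18.03 in NV. Its difference between RS and NV, 0.36 as deposited, was 0.17 without the trend with signal and -0.05 after quantile normalization.
Rab3 GTPases guide vesicles to the active zone, and 0 of 4 passed 2-fold. Rab3a, the main neuronal form, had 15.31 in RE, 15.14 in RS and 15.32 in NV. Rab3c had 15.05 in RE, 15.03 in RS and 15.57 in NV, and Rab3b had 10.97, 11.00 and 10.85. Complexins clamp and then assist the SNARE complex. Cplx1 had 13.57 in RE, 13.62 in RS and 13.76 in NV, and Cplx2 had 13.28, 13.45 and 13.17, so that both lay within 0.28 of NV. The retinal forms Cplx3 and Cplx4 were below the background level.

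Between RE and RS, which asks how EVs from running donors compared with EVs from sedentary donors in restrained mice, no gene of the 69 reached 2-fold, and the differences ran from -0.72 to 0.57. At a lower bound of 1.25-fold, chosen after the values were seen, 7 genes were higher in RE (10.1%, against 11.9% of all genes) and 14 lower (20.3%, against 20.6%). The largest differences were those of Snap25 (-0.72, 1.64-fold lower) and Syp (-0.63, 1.55-fold lower), and Syt1, at a similar signal, differed by -0.45. After quantile normalization these 3 differences were 0.03 for Snap25, 0.05 for Syp and 0.32 for Syt1, so that their direction turned. After removal of the trend with signal they were -0.31 for Snap25, -0.24 for Syp and -0.05 for Syt1, so that it held. Quantile normalization gives each probe set the mean of the 3 arrays at its rank. Its values for these genes thus follow their rank alone. Syn2, also above 16 in its mean, differed by -0.14 as deposited. Its difference was 0.125 without the trend and 0.12 after quantile normalization. These genes lay at the top of the signal scale, where the arrays of RE and RS differed as a whole. Of 130 genes with a mean log2 signal of 16 or more, 128 were below 0 in RE against RS, with a median of -0.41, 99 were below 0 after removal of the trend with signal, with a median of -0.09, and 51 after quantile normalization, with a median of 0.01. How the deposited signals came to exceed 16 on the log2 scale is not stated in the labels or the methods.
Further down the signal scale, differences of up to 0.57 were found in both directions. Rims3 was higher in RE than in RS by 0.57, Syt13 by 0.53 and Syt17 by 0.51. Syt17 had 12.97 in RE, 12.46 in RS and 12.74 in NV. Stx1a was higher by 0.43 and Syt2, near the background level in both pools, by 0.49. Syn3, at -0.54, and Syt10, at -0.53, were lower in RE. Stx1a, Rims3 and Syt2 were lower in RS than in NV and had RE values between RS and NV. The RS array enters both differences.

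**Figure D3:**
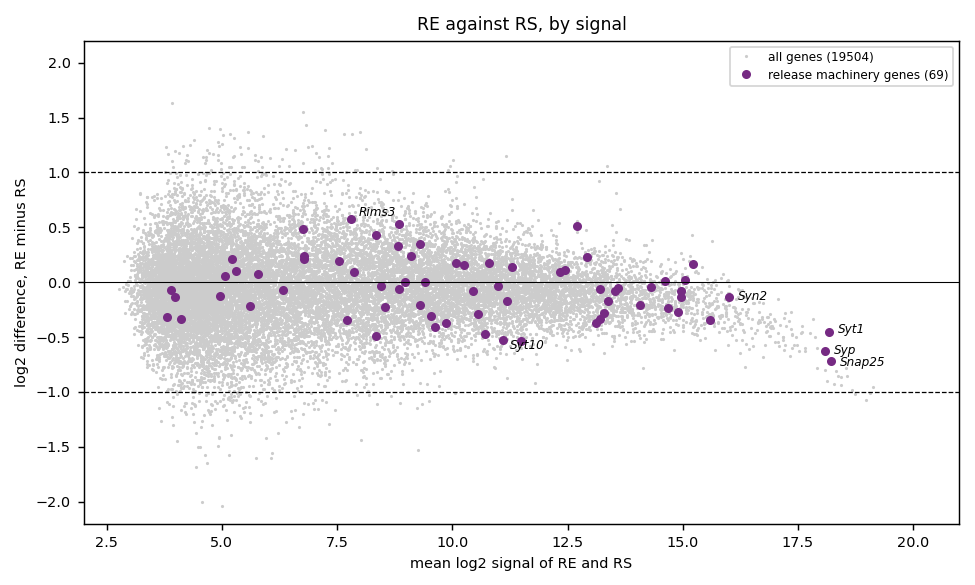
Log2 difference between the RE and RS pools (y axis) against their mean log2 signal (x axis) for all 19504 genes (grey) and the 69 genes described here (purple), with dashed lines at 2-fold. No purple point passes 2-fold, and Snap25, Syp and Syt1 lie in a tail at the right where nearly all genes are below 0 as deposited, a direction that turns for these 3 genes after quantile normalization and holds after removal of the trend with signal.

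Other genes of vesicle release and recycling were listed by function. The array measured 45 of 47. In RS, 4 of them were higher than in NV at 2-fold and 3 lower, 15.6% against the 7.80% of all genes given above, with a median of 0.00. The higher genes were the active zone genes Ppfia2 (1.14, which encodes liprin-alpha 2) and Erc2 (1.07, ELKS2), the presynaptic calcium channel gene Cacna1a (1.05) and the calcium sensor gene Doc2b (1.01). The lower ones were Slc17a6 (-3.30), which encodes VGLUT2 and loads glutamate in many thalamic and brainstem neurons, Slc32a1 (-1.42), the vesicular GABA transporter, and Doc2a (-1.01). Slc17a6 and Slc32a1 are counted again below, among the thalamus and habenula genes and the interneuron genes. Between RE and NV, Rimbp2, a link between RIM and calcium channels, was higher (1.23), and Slc17a6 (-3.05) and Doc2a (-1.31) were lower, 6.67% against the 7.98% of all genes. Doc2a was below the background level in both restrained pools, with 4.97 in RE and 5.27 in RS against 6.28 in NV, so that the size of its difference is uncertain. Slc17a7, the vesicular glutamate transporter of hippocampal principal neurons, had 15.57 in RE, 15.95 in RS and 15.99 in NV. Nsf, the enzyme that takes spent SNARE complexes apart, had 16.71, 17.07 and 16.95. Between RE and RS, 0 of the 45 passed 2-fold.

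Genes known from other regions and cell types moved in the same comparisons, and their part in the differences above was not tested. Of 13 thalamus and habenula genes, 6 were lower and 1 higher at 2-fold between RS and NV, with a median of -0.96, and 5 were lower and 1 higher between RE and NV, with a median of -0.88. Their summed signal, as a log2 value, was 13.10 in RE, 12.89 in RS and 14.50 in NV, and 3 of them (Lef1, Tac2 and Gpr151) were below the background level in all pools. Pou4f1 and Irx2 were below the background level in both restrained pools, so that the size of their differences is uncertain. Such sums mostly follow the brightest genes of a list, and probe sets differ in how strongly they bind. Tcf7l2, a thalamic transcription factor with the lowest difference of all genes in both comparisons with NV, had 8.54 in RE, 8.21 in RS and 12.89 in NV. Among 10 genes of inhibitory interneurons 1 was lower at 2-fold in RE and 3 in RS than in NV, and 0 were higher in either, with sums of 16.07 in RE, 15.72 in RS and 16.44 in NV. Sst alone, the brightest of these, had 15.82 in RE, 15.45 in RS and 16.12 in NV. Cerebellar genes were listed after the difference in Unc13c had been seen. Of 10, Cbln1 was lower and Gdf10 higher than NV in both RE and RS, and Zic2 was lower in RE, with sums of 9.73 in RE, 9.52 in RS and 10.10 in NV. Gdf10 in NV (5.10), Zic2 in RE (5.64) and Cbln1 in RS (5.92) were below the background level, so that the size of these differences is uncertain. Gabra6, the defining receptor subunit of cerebellar granule cells, was at 3.71 in RE, 3.67 in RS and 3.29 in NV, below the background level in every pool.
In the other direction, 6 of 9 dentate granule cell genes were higher and 0 lower, both between RS and NV and between RE and NV, with sums of 13.97 in RE, 14.21 in RS and 13.35 in NV. Of these, Dsp (4.85), Tdo2 (4.42) and Lct (5.25) were below the background level in NV, so that the size of their differences is uncertain. Of 8 CA pyramidal cell genes, 3 were higher in RE and 4 in RS, with 0 lower in either, with sums of 15.52 in RE, 15.83 in RS and 13.77 in NV. Neurod6 alone had 15.28 in RE, 15.61 in RS and 13.16 in NV, so that these sums mostly follow it. Pou3f1 was below the background level in NV (5.60), so that the size of its difference is uncertain. Of 7 oligodendrocyte genes, 4 were higher in RE and 5 in RS, with 0 lower in either, with sums of 17.32, 17.61 and 16.43. General neuronal genes did not pass 2-fold in any of 9 cases, with sums of 17.62 in RE, 17.75 in RS and 17.74 in NV. Of 8 genes of fibroblasts and meninges, 3 were lower in RE and 4 in RS than in NV, and 0 were higher in either, with sums of 14.80 in RE, 13.85 in RS and 15.23 in NV. Between RS and NV, 1 of 7 astrocyte genes, 1 of 5 microglial genes and 2 of 6 choroid plexus genes were higher, and 0 were lower. The microglial gene Aif1 (5.73) and the choroid plexus genes Ttr (5.78) and Kl (5.52) were below the background level in NV. Col1a2 and Mgp, of the lower fibroblast genes, were below it in both restrained pools. The size of these differences is uncertain. Between RE and RS, 1 of 13 thalamus and habenula genes (Calb2, 1.06) and 1 of 8 fibroblast and meninges genes (Dcn, 1.06) were higher at 2-fold. Lower were 1 of 9 dentate granule cell genes (Tdo2, -1.08) and 1 of 8 CA pyramidal cell genes (Pou3f1, -1.10). No gene of the other lists passed 2-fold between RE and RS, and 1.16% of all genes did. The part of cell types in that comparison was not tested.

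**Figure D4:**
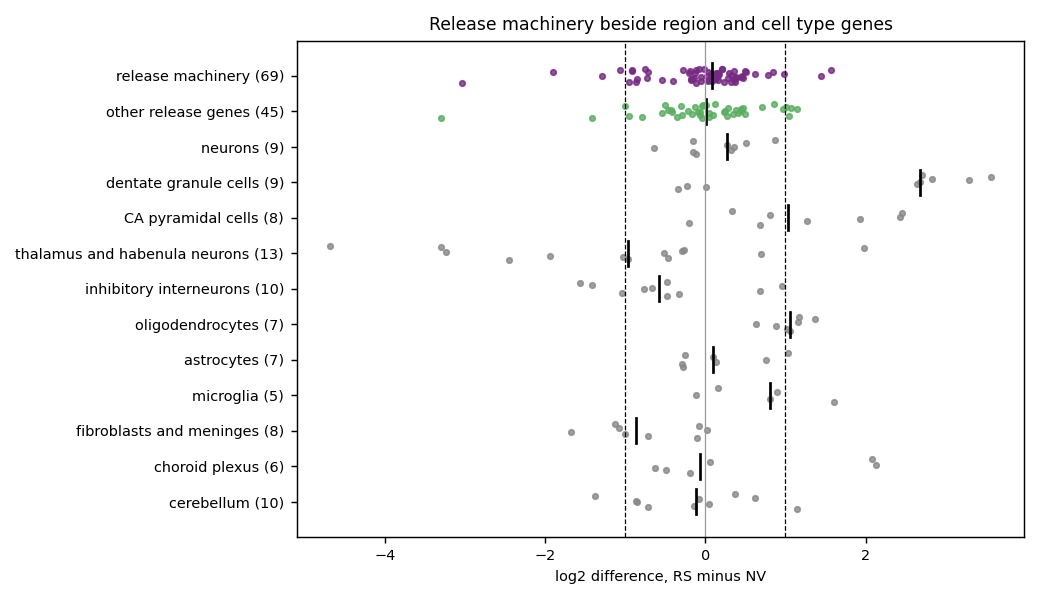
Log2 difference between the RS and NV pools (x axis) for the 69 release machinery genes, 45 other release genes and lists of region and cell type genes (rows, number of genes in brackets), 1 point per gene, with the median as a bar and dashed lines at 2-fold. The release machinery is centred near 0 (median 0.08), whereas the medians of dentate granule cell genes (2.68) and of thalamus and habenula genes (-0.96) lie on opposite sides. Both of these lists hold genes near 0 as well.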

How the data were processed

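RNA from the hippocampi of each group was combined into 1 pool, and each of the 3 pools was run on 1 Affymetrix array. The authors deposited log2 signals for 22205 probe sets, made with Command Console software by the methods and with RMA and Affymetrix Power Tools by the submitters' notes, in unstated versions. Gene names came from the platform annotation (19571 probe sets with 1 symbol, 0 with several, 2634 with none here). Updating through gene identifiers changed 0 symbols, and the probe set with the highest mean was kept, leaving 19504 genes. No source used here names the build behind the array values, and the promoter sequences are from the GRCm38.p6 table of RefSeq.

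Pools were compared by the difference of log2 values, with the 2-fold threshold of the paper, across all 19504 genes. With 1 array per group no test was run. Members and gene lists were chosen with earlier results of these data known. Genes were named by rule: all past 2-fold in any comparison, the 3 just inside and just outside 2-fold between RS and NV, the 2 with the highest mean signal per role, and canonical release genes. Further members were named after their values were seen, to account for the whole list. The steps were tested on simulated data. Alternatives were a low signal filter, centring, removal of the lowess trend (span 0.3), quantile normalization, the mean of probe sets, a 1.5-fold threshold and the mean of RS and RE. The 1.25-fold bound and the cerebellar list were added after the values were seen. Array signal has no read depth. Calculations ran in python 3.11.15 with pandas 2.3.3 and numpy 2.4.6, the lowess trend came from statsmodels 0.14.6, and plots from matplotlib 3.10.9.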

Additional observations from a re-analysis of the deposited data

How the results depend on the processing

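All values rest on 1 array per group, so leaving out a replicate was not possible. At 1.5-fold, 6 genes were higher and 12 lower between RS and NV, 4 and 9 between RE and NV, and 0 and 2 between RE and RS. The share of all genes past 1.5-fold was not computed, so these counts cannot be set against it. At the added bound of 1.25-fold, 7 were higher (10.1%, against 11.9% of all genes) and 14 lower (20.3%, against 20.6%) between RE and RS. The median of the 69 genes between RS and NV was -0.0241 after quantile normalization, against 0.08 as deposited. Under centring, removal of the lowess trend and quantile normalization, 312 of 315 values of 35 named genes kept their side of the 2-fold threshold. The low signal filter and the mean of probe sets could not change these values. The exceptions were Rims3 between RS and NV, at -1.02 without the lowess trend and -1.03 after quantile normalization, and Vamp1 between RE and NV, at -0.995 after centring. No gene past 2-fold changed sign. Many of the 315 values lay too far from 2-fold for these scalings to carry them across it. Genes short of 2-fold whose sign changed counted as unchanged, so the count says nothing about their direction. With RS and RE averaged, 2 were higher and 4 lower than NV. No paired analysis was possible because the mice of each group were pooled onto 1 array. Signal limits the genes below the background level, whose differences have uncertain size, and those above 16. Between RE and RS the direction of Snap25, Syp and Syt1 turned after quantile normalization but not after centring or removal of the lowess trend. The direction of Syn2 (-0.14 as deposited) turned after quantile normalization (0.12) and after removal of the lowess trend (0.125). Between RS and NV the direction of Syt1 and Syp also turned after quantile normalization, and the difference of Snap25 became 0.00. That scaling keeps only the rank of a gene on each array, so 0.00 means the same rank on both.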
